A study of Mus musculus with 33 samples.

Results

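The genes described here encode the metalloproteinases of the MMP, ADAM and ADAMTS families and the TIMPs, the proteins that inhibit them, in enteric neural crest cells (ENCCs) cultured with and without GDNF and in whole embryonic gut. They were chosen by gene symbol alone, from probe sets that the platform annotation assigns to a single gene, and they made up 65 of the 18193 genes measured. The families held 18 MMP, 28 ADAM, 15 ADAMTS and 4 TIMP genes, read by 116 probe sets. Scores were averaged over the probe sets of a gene, and 35 members had 1 probe set while 30 had between 2 and 6.

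ENCCs were isolated from mouse embryos of embryonic day 14.5 on a C57BL/6 background, transgenic for Wnt1-Cre, which is active in neural crest, and for a Cre-dependent YFP reporter at R26. YFP-positive cells of a gut were sorted and divided between a pair of fibronectin-coated wells in medium with N2, B27, FGF and EGF, and GDNF was added to 1 of them at 50 ng/ml, so both kinds of ENCC had FGF and EGF. Whole guts, taken from duodenum to anus, came from wild-type C57BL/6 embryos of the same age, carried neither transgene and were not sorted. The data comprised 9 GDNF-treated RNAs on 13 arrays, 9 untreated RNAs on 12 arrays and 8 whole gut RNAs on 1 array each, hybridised in 2 batches. Wnt1-Cre marks neural crest descendants, so the sorted cells can hold neurons, glia and their precursors. The labels leave out the time in culture, the litters of the embryos and whether any were pooled. If they were not separate embryos, the p-values measure only the spread between these RNAs.

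MMPs are secreted or membrane-anchored enzymes that cut collagens, laminins and other matrix proteins, and most are made as inactive proforms. ADAMs are transmembrane proteins of which some shed growth factors, Notch and adhesion molecules from the cell surface, while others have lost the catalytic site and act as receptors. ADAMTS enzymes are secreted and cut proteoglycans and procollagens, and TIMPs block MMPs and, to differing degrees, ADAMs and ADAMTSs. In the embryonic gut, crest cells migrate through a matrix of these substrates, and matrix metalloproteinases have been linked to that migration.

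The deposited values are scores that rank a probe set within its array, after scaling on the ENCCs of its batch, and not log2 intensities. Differences are therefore given in score units, no fold change is given, and scores of different genes are not compared as levels. Each of 7 ENCC RNAs was hybridised again in the second batch, and across probe sets its scores in the 2 batches correlated at 0.117 to 0.325. Of 5 ENCC markers (Ret, Sox10, Ednrb, Elavl4 and Tubb3), 4 were higher in GDNF-treated and 5 in untreated ENCCs than in whole gut, and all 6 epithelial, all 6 endothelial and all 5 mesothelial markers were lower in both. Of 6 macrophage markers, 5 were lower in each, and Adgre1 was higher in untreated ENCCs (1.96, adjusted p = 2.6e-05, limma) and did not pass in treated ENCCs (0.68). The label field for cell type describes the whole guts as crest cells from gut, and the markers and the title go against it.

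GDNF-treated wells had lower scores than untreated wells of the same gut for 7 MMPs, Mmp2 and Mmp14 among them, and for Timp2 and Timp3. The limma test on the differences within 9 guts, with Benjamini-Hochberg adjustment over all genes at 0.05, found that 15 of the 65 members fell and 5 rose, or 23.1% and 7.69%. The background over all 18193 genes was 13.2% lower and 18.3% higher with GDNF, and 31.5% in either direction. In the MMP family 7 of 18 genes fell and 1 rose, in the ADAM family 2 of 28 fell and 2 rose, in the ADAMTS family 4 of 15 fell and 1 rose, and of the 4 TIMPs 2 fell and 1 rose. The median difference was -0.32 for MMPs, -0.08 for ADAMs, -0.36 for ADAMTSs and -0.83 for TIMPs, against 0.01 over all genes. The median over the 18 MMPs was below 0 in all 9 guts, from -1.69 in gut 2 to -0.27 in gut 5. In batch 1 alone 13 members fell and 4 rose. Batch 2 alone, with 4 guts, gave no call among all genes (3516 genes had an unadjusted limma p under 0.05), and 18 of the 20 members had the same sign there, Adam9 and Mmp7 being the exceptions. Arrays of both batches had entered the calls, so agreement within a single batch is no independent replication. An exact sign change test over the guts, adjusted over all genes, did not pass 7 of the 20 (Adam23, Adam9, Adamts6, Adamts9, Mmp7, Timp2 and Timp4). Wells with fewer cells of a type and cells with less of an RNA cannot be told apart in these bulk samples.

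**Figure D1:**
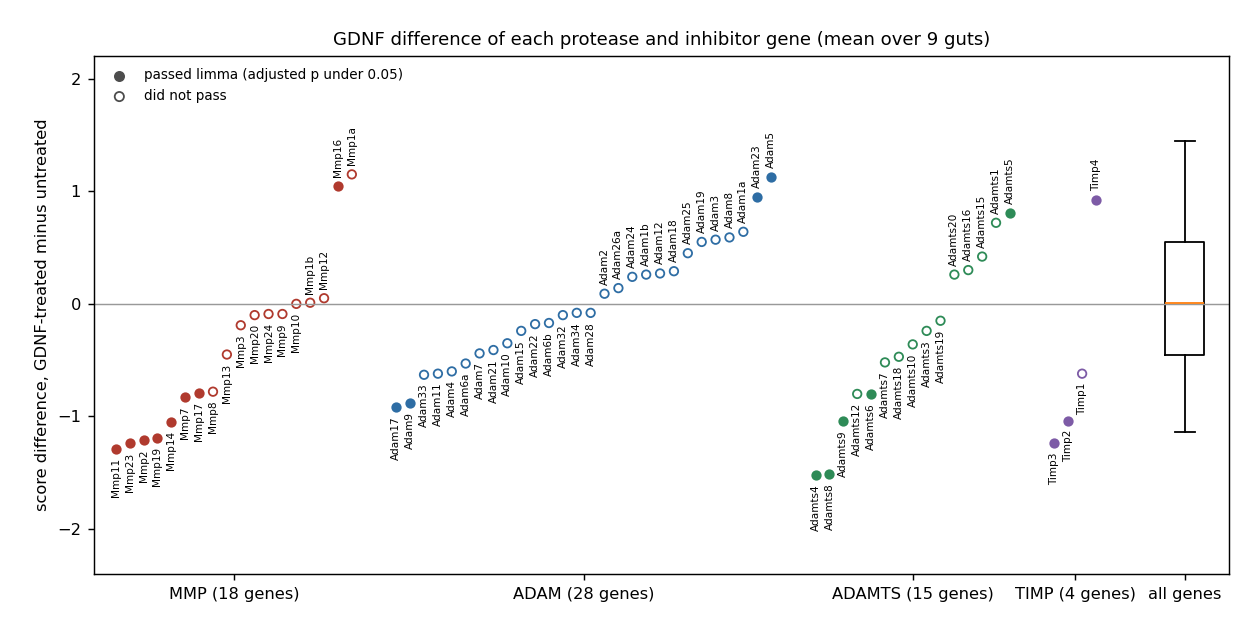
Score difference with GDNF (GDNF-treated minus untreated, mean over 9 guts, vertical axis in score units) of each of the 65 genes, ordered within its family, with filled points for genes that passed the limma test. The box at the right gives the 25th, 50th and 75th percentiles of all 18193 genes (-0.45, 0.01 and 0.55) and whiskers at the 5th and 95th percentiles (-1.14 and 1.45); the 7 filled MMP points below 0 lie between -1.29 and -0.79.

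Cells of other types can carry these genes, and markers of such cells were read beside them. Of 8 markers of gut mesenchyme and smooth muscle, Osr1 (-1.76) and Pdgfrb (-1.35) fell with GDNF and 0 rose. These are 25% and 0%, against 13.2% and 18.3% of all genes, and Tcf21 had a positive mean (0.39) that did not pass. The median of the 8 markers was -0.56 and below 0 in all 9 guts. Their mean score in batch 2 was -0.63 to 0.13 on treated arrays, 0.11 to 0.61 on untreated arrays and 1.52 to 1.62 on whole gut arrays. All 8 were lower in treated ENCCs than in whole gut, and 6 were lower and 0 higher in untreated ENCCs. Of the other marker lists, 0 of 6 epithelial, 1 of 6 endothelial, 0 of 6 macrophage and 2 of 5 mesothelial genes rose with GDNF, and 1 macrophage gene fell. Of the 5 ENCC markers, the neuronal tubulin Tubb3 rose by 1.80 ± 0.51 in 9 of 9 guts (adjusted p = 7.7e-05, limma). Ednrb, a receptor of migrating crest cells, differed by -0.82 ± 1.02 with 8 of 9 guts lower, Ret by 0.70, Sox10 by -0.03 and Elavl4 by -0.15, and none of these passed. The scores keep no absolute level, so no marker can be said to be absent. Ribosomal protein genes also moved, with 30 of 46 lower and 0 higher with GDNF and a median of -0.91. The part of these shifts in the protease and TIMP differences was not tested. Scores of the hybridisation control probe sets differed between the wells of a gut by -2.18 to 0.65 (treated minus untreated), and with them as a covariate 15 members fell and 5 rose.

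The gelatinase Mmp2, which cuts denatured collagen and type IV collagen, ranged from -1.09 to 0.97 in treated wells (median -0.41), and from -0.14 to 1.99 in untreated wells (median 0.76). Its difference was -0.48, -1.85, -0.78, -1.84, -1.49, -0.49, -0.30, -1.49 and -2.22 in guts 1 to 9. The treated well was lower in all 9 guts although the groups overlapped, and both probe sets fell (-1.23 and -1.20). The mean was -1.21 ± 0.71 (SD, n = 9 guts, limma adjusted p = 0.00227). The other gelatinase, Mmp9, scored -0.94 to 1.29 in treated and -1.12 to 1.30 in untreated wells, a difference of -0.09 ± 1.19 that did not pass (adjusted p = 0.874, limma), with 6 of 9 guts higher.

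Among membrane-type MMPs, which act at the cell surface, Mmp14, Mmp17 and Mmp16 passed, in opposite directions. Mmp14, the collagenase that activates proMmp2 with Timp2 as adaptor, had scores of -1.36 to 0.38 in treated wells (median -0.89) and -0.77 to 1.30 in untreated wells (median 0.49). It was lower with GDNF in all 9 guts, with a mean difference of -1.05 ± 0.65 (SD, n = 9, limma adjusted p = 0.00445), and its 3 probe sets fell. Mmp17, which is held in the membrane by a lipid anchor, was lower in all 9 guts, with differences from -1.81 to -0.28 and a mean of -0.79 ± 0.52 (adjusted p = 0.014, limma), which did not pass without the pairing of wells (-0.77).

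Mmp16 was the single MMP that rose. Its scores were -0.78 to 1.36 in treated wells (median 0.86) and -2.10 to 0.18 in untreated wells (median -0.22). The differences in guts 1 to 9 were 3.46, 0.37, -0.42, 0.80, 0.70, 0.96, 0.45, 2.02 and 1.08. All but gut 3 were higher with GDNF, and gut 1 lay highest. The mean was 1.05 ± 1.11 (SD, n = 9, limma adjusted p = 0.0267), and it did not pass without gut 8 (0.92) or in batch 1 alone (1.05). Its probe sets at 1.12 and 1.56 rose, and those at 1.06 and 0.45 did not pass. Mmp24, the membrane-type enzyme best known from the nervous system, differed by -0.09 ± 0.85 and did not pass.

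Mmp11, a stromal enzyme that furin activates inside the cell, had the lowest mean difference of the family. Treated wells scored -0.98 to -0.19 (median -0.63) and untreated wells -0.98 to 1.85 (median 0.65). By gut the differences were 0.26, -2.05, -2.04, -0.90, -1.50, -1.60, -1.59, -1.21 and -0.97. Gut 1 was the exception among 9 guts, and the mean was -1.29 ± 0.71 (SD, n = 9, limma adjusted p = 0.00151). Mmp23, a small enzyme anchored at its amino terminus, scored -1.48 to 0.06 in treated wells (median -0.79) and -0.51 to 1.76 in untreated wells (median 0.51). Its differences were -0.74, -1.96, -2.55, -0.34, -0.61, -2.83, -1.12, -1.44 and 0.45, lower in all but gut 9. The mean was -1.24 ± 1.07 (SD, n = 9, limma adjusted p = 0.00945). Mmp19, which cuts basement membrane proteins, was lower in all 9 guts, from -2.28 to -0.62, with a mean of -1.19 ± 0.61 (adjusted p = 0.00162, limma).

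Mmp7, the matrilysin of epithelia, differed by -0.83 ± 0.83 (SD, n = 9, limma adjusted p = 0.0315) with 7 of 9 guts lower. That call was lost in batch 1 alone (-1.02), without the pairing of wells (-0.80) and on leaving out gut 2, 4, 5, 6 or 7 (-0.79 to -0.68). In batch 2 alone its difference was 0.25. None of the 4 collagenases measured (Mmp1a, Mmp1b, Mmp8 and Mmp13) and neither stromelysin (Mmp3 and Mmp10) passed. Their mean differences ran from -0.78 for Mmp8 to 1.15 for Mmp1a, each with single guts on both sides of 0. The macrophage elastase Mmp12 (0.05 ± 1.14) and the enamel protease Mmp20 (-0.10 ± 1.02) did not pass either.

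**Figure D2:**
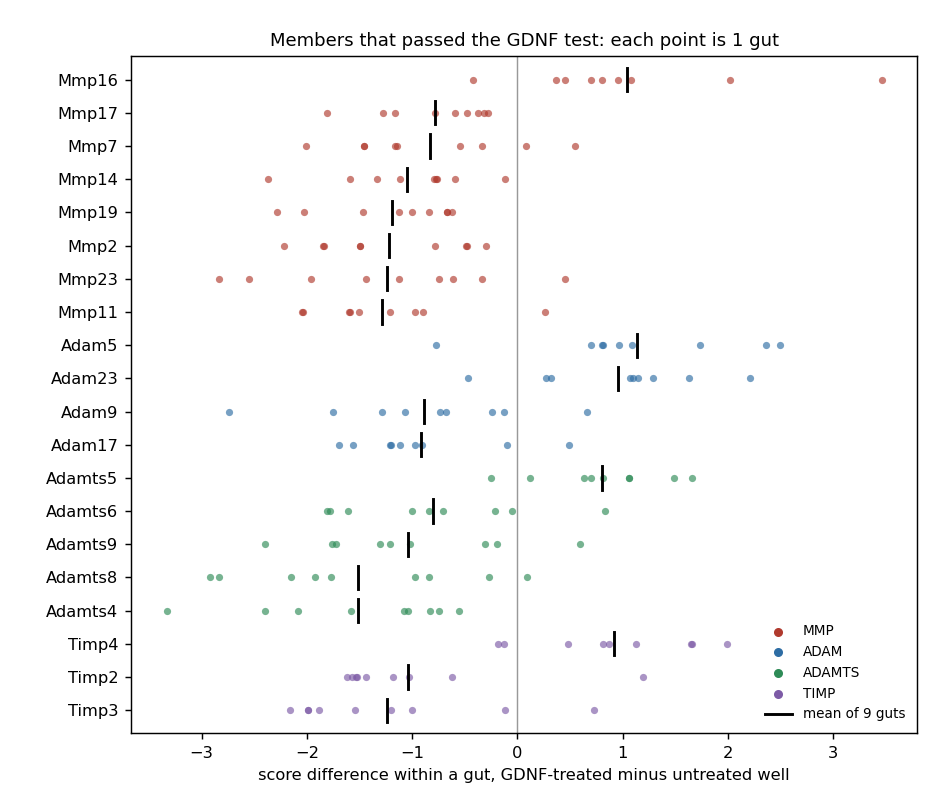
Score difference within each of 9 guts (GDNF-treated minus untreated well, horizontal axis in score units) for the 20 members that passed the limma test, coloured by family, with a black bar at the mean. Mmp2, Mmp14, Mmp17, Mmp19 and Adamts4 have all 9 points below 0, and no member has all 9 above 0.

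Collagenases, stromelysins, matrilysin, Mmp12 and Mmp20 lie together on mouse chromosome 9, and all 9 of these measured genes fall within chr9:7272514-7699585 (GRCm38.p6, RefSeq). In that cluster 1 gene fell with GDNF (Mmp7) and 0 rose, with a median difference of -0.10. Of the 9 MMPs elsewhere 6 fell and 1 rose, with a median of -1.05. This division by position was made after the values were seen, and it has no test. For the most reproducible probe set of a gene, scores correlated between batches, over the 7 repeated RNAs, at -0.698 to 0.996 (median 0.364) in the cluster and at 0.398 to 0.994 (median 0.929) elsewhere, as a description over 9 genes each. The median SD over guts was 1.38 in the cluster and 0.71 elsewhere.

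Upstream sequence is shown here for the cluster because most of its genes share a short stretch of letters. The letters TGANTCA, which read the same on both strands apart from the central N and include the element bound by AP-1 (Fos and Jun proteins), were searched in the 250 bases before each RefSeq start. They were present in at least 1 window of 8 of the 9 cluster genes, Mmp8 being the exception, and in 0 of the 4 other MMPs with a window in the table. Of the other families with a window, 14.3% of 14 ADAM genes, 0 of 6 ADAMTS genes and 0 of 4 TIMPs held them, against 7.82% of all 27025 genes. Mmp20 and Adam25 matched through TGAATCA, and every other member with a match through TGAGTCA or TGACTCA. The count of matches is therefore wider than a count of a single element. Of the 8 members with a window that fell with GDNF, 1 held the letters (Mmp7), as did 0 of the 2 that rose. A match describes these letters and no occupancy by a factor. The 100 bases before the start of 5 genes, all on the plus strand of GRCm38.p6 and taken from RefSeq, show where the letters lie, in capitals, in a cluster gene that fell (Mmp7), in 3 cluster genes that did not pass and, for contrast, the stretch without them before Mmp14, which fell. The windows are chr9:7691990-7692089 for Mmp7, chr9:7502242-7502341 for Mmp10, chr9:7445722-7445821 for Mmp3, chr9:7272414-7272513 for Mmp13 and chr14:54431498-54431597 for Mmp14.
Mmp7: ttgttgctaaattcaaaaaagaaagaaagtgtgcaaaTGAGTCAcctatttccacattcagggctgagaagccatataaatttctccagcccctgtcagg
Mmp10: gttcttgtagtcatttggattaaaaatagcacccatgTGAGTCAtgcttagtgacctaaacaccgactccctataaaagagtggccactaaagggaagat
Mmp3: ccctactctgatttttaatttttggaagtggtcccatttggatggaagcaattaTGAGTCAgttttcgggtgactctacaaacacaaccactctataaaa
Mmp13: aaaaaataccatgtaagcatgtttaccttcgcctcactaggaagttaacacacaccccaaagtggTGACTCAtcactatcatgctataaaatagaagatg
Mmp14: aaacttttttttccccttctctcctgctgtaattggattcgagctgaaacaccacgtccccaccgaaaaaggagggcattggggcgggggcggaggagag
The first letter of the match lay at -63 in Mmp7 and in Mmp10, at -46 in Mmp3 and at -35 in Mmp13, counted back from the start. The central base was G in the first 3 of these and C in Mmp13. TGAGTCA reads as TGACTCA on the opposite strand, so these are the same letters in opposite orientation.

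The TIMPs moved in both directions. Timp3, which binds the matrix and inhibits MMPs as well as Adam17 and the aggrecanases, scored -1.31 to 0.22 in treated wells (median -0.66) and -1.69 to 1.76 in untreated wells (median 0.78). Its differences in guts 1 to 9 were 0.73, -2.16, -1.99, -0.12, -1.00, -1.99, -1.54, -1.88 and -1.20. Gut 1 alone was higher with GDNF, all 4 probe sets fell, and the mean was -1.24 ± 0.98 (SD, n = 9, limma adjusted p = 0.00659).

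Timp2, the inhibitor that also bridges proMmp2 to Mmp14, scored -0.94 to -0.01 in treated wells (median -0.54) and -1.19 to 1.05 in untreated wells (median 0.69). Gut by gut it differed by 1.19, -1.52, -1.62, -1.53, -1.03, -0.62, -1.18, -1.57 and -1.44. Apart from gut 1 every gut was lower, with a mean of -1.04 ± 0.89 (SD, n = 9, limma adjusted p = 0.0132), and 4 of its 6 probe sets fell.

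Timp1, a secreted inhibitor induced by growth factors and cytokines in many cells, differed by -1.16, -1.47, -0.84, -0.95, -0.61, -0.90, -0.07, 0.05 and 0.37. Its scores were -1.63 to 0.99 in treated wells (median -1.23) and -1.01 to 1.13 in untreated wells (median -0.19). The mean of -0.62 ± 0.61 did not pass (adjusted p = 0.0583, limma), and it passed without gut 9 (-0.74). Timp4, the inhibitor of narrowest tissue distribution, was higher with GDNF in 7 of 9 guts. It differed by 1.66, -0.13, 0.48, 1.65, 0.81, 1.99, -0.18, 0.87 and 1.13, with scores of -1.08 to 3.48 in treated wells (median 0.61) and -1.38 to 1.97 in untreated wells (median -0.23). It rose by 0.92 ± 0.77 (SD, n = 9, limma adjusted p = 0.0158), but 1 of its 2 probe sets did not pass (1.28 and 0.56), and the call was lost without the pairing of wells (0.99).

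Of the 9 ADAMs known as active proteases, 2 fell and 0 rose (22.2% and 0%, against 13.2% and 18.3% of all genes). Adam17, the sheddase of tumour necrosis factor and of several EGF receptor ligands, scored -1.13 to 1.09 in treated wells (median -0.24) and 0.25 to 1.25 in untreated wells (median 0.80). Its differences were -0.10, -1.20, -1.69, -1.21, -0.97, 0.49, -1.11, -0.91 and -1.56. Gut 6 alone was higher with GDNF, and the mean was -0.92 ± 0.70 (SD, n = 9, limma adjusted p = 0.0117). Adam9, a widely expressed sheddase, differed by 0.66, -0.73, -0.13, -1.75, -2.74, -1.29, -1.07, -0.68 and -0.24. Gut 1 alone was higher, with scores of -1.69 to 0.73 in treated wells and 0.07 to 1.39 in untreated wells. Its mean of -0.88 ± 0.99 passed narrowly (adjusted p = 0.0399, limma), was lost on leaving out gut 2, 4, 5, 6, 7 or 8 (-0.91 to -0.65), and was 0.35 in batch 2 alone.

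Adam10, the main sheddase of Notch and of N-cadherin, had differences of -2.80 to 0.87 with 5 of 9 guts higher. Its mean was -0.35 ± 1.16 and did not pass (adjusted p = 0.485, limma). Its 4 probe sets disagreed, with differences of -1.18, -0.19, 0.33 and -0.37, of which the first, the most reproducible between batches, passed. The others among the active ADAMs (Adam8, Adam12, Adam15, Adam19, Adam28 and Adam33) did not pass, with means between -0.63 for Adam33 and 0.59 for Adam8. For Adam12, known from muscle and mesenchyme, gut 1 was 2.72 and the other guts lay between -0.57 and 0.38.

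Adam11, Adam22 and Adam23 lack protease activity and serve in the nervous system as receptors of the secreted LGI proteins. Adam23 scored -1.40 to 1.19 in treated wells (median 0.39) and -1.71 to 0.23 in untreated wells (median -0.71). It differed by 1.15, 2.21, 1.07, 0.32, 0.27, 1.63, 1.10, 1.29 and -0.47, higher in all but gut 9. The mean was 0.95 ± 0.80 (SD, n = 9, limma adjusted p = 0.0145). Of its 3 probe sets 2 rose (1.63 and 1.85) and the other, at -0.63, did not pass, so the mean over probe sets is smaller than either that rose. Adam22 scored -0.96 to 1.25 in treated and -2.13 to 1.06 in untreated wells, and its mean was -0.18 ± 1.35 (adjusted p = 0.762, limma), with gut 1 at 3.08 and the others between -1.22 and 0.33. Adam11 differed by -0.62 ± 0.71 and did not pass (adjusted p = 0.0772, limma), although the more reproducible of its 2 probe sets fell (-1.00) and the other did not pass (-0.23). The 4 LGI genes all had positive means. Lgi2 rose by 1.67 ± 0.97 and Lgi1 by 1.62 ± 0.46, both in 9 of 9 guts (adjusted p = 8.9e-04 and 1.1e-04, limma), while Lgi3 (0.47) and Lgi4 (0.31) did not pass.

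Of the 16 ADAMs best known from testis and epididymis, 1 rose and 0 fell (6.25% and 0%, against 18.3% and 13.2% of all genes). That gene, Adam5, scored -0.41 to 2.44 in treated wells (median 0.83) and -1.50 to 0.85 in untreated wells (median -0.23), and its differences were 2.50, 0.70, 0.97, 0.81, 2.36, -0.77, 0.80, 1.74 and 1.09. Gut 6 alone was lower with GDNF, and the mean was 1.13 ± 0.99 (SD, n = 9, limma adjusted p = 0.0113). The means of the other 15 ran from -0.60 for Adam4 to 0.64 for Adam1a, and none of them passed.

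Among the 7 ADAMTS genes counted as proteoglycanases, 3 fell and 1 rose (42.9% and 14.3%, against 13.2% and 18.3% of all genes). Adamts4, an aggrecanase that also cuts versican and brevican, scored -2.35 to 0.36 in treated wells (median -1.31) and -1.53 to 1.69 in untreated wells (median 0.77). In guts 1 to 9 it differed by -0.83, -3.33, -2.08, -0.55, -1.58, -2.40, -1.04, -1.08 and -0.74. All 9 guts were lower, with a mean of -1.52 ± 0.92 (SD, n = 9, limma adjusted p = 0.0014). Adamts8 differed by -0.84, -2.83, -2.15, 0.09, -1.92, -2.92, -0.97, -1.77 and -0.27, with scores of -2.33 to 0.55 in treated wells and -1.49 to 1.93 in untreated wells. Its mean was -1.51 ± 1.07 (adjusted p = 0.00281, limma), and gut 4 alone lay above 0.

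Adamts9, which cuts versican and is related to the worm protein GON-1, differed by 0.60, -0.19, -1.21, -1.02, -1.72, -2.40, -1.30, -1.76 and -0.31. Its scores were -1.97 to 0.79 in treated wells (median -0.25) and -0.53 to 1.81 in untreated wells (median 0.80). All but gut 1 were lower, and the mean was -1.04 ± 0.93 (SD, n = 9, limma adjusted p = 0.0149).

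Adamts5, the other major aggrecanase, moved the opposite way from Adamts4. Its scores were -0.72 to 1.76 in treated wells (median 0.54) and -1.35 to 0.66 in untreated wells (median -0.08), and its differences were 1.49, 0.12, 1.06, -0.25, 0.70, 1.66, 0.63, 1.06 and 0.81. All but gut 4 were higher with GDNF, 3 of its 4 probe sets rose, and the mean was 0.81 ± 0.61 (SD, n = 9, limma adjusted p = 0.0166). Without the pairing of wells the call was lost (0.84). Adamts1, a versican-cutting enzyme, had 8 of 9 guts above 0 and a mean of 0.72 ± 1.01. It did not pass (adjusted p = 0.0938, limma), and it passed without gut 4 (0.97). Adamts6, known in mouse from heart development, fell by 0.80 ± 0.88 (adjusted p = 0.0457, limma), and that call was lost on leaving out any of guts 2 to 7 (-0.81 to -0.67). Its probe set at -1.30 fell, and the other, at -0.29, did not pass. The other 9 ADAMTS genes did not pass, and their means ran from -0.80 for Adamts12, which passed without gut 1 (-1.04), to 0.42 for Adamts15.

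Genes that work with these enzymes were taken as lists and read against the same background, 18.3% higher and 13.2% lower over all genes. Among 11 regulators of metalloproteinases, 6 fell and 1 rose with GDNF. Furin, the convertase that activates many MMP, ADAM and ADAMTS proforms, fell by 1.70 ± 1.05 (8 of 9 guts lower, adjusted p = 0.00117, limma). Sparc, a matrix protein, fell by 1.22 ± 0.40 in 9 of 9 guts (adjusted p = 5.1e-04, limma). Reck, a membrane-anchored inhibitor of MMPs, rose by 1.38 ± 1.10 in 7 of 9 guts (adjusted p = 0.00546, limma).

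Of 8 tetraspanins and iRhoms, the partners that guide Adam10 and Adam17 to the surface, 3 rose and 1 fell. These are 37.5% and 12.5%, against 18.3% and 13.2% of all genes. The Adam10 partners Tspan17 (1.69 ± 0.51, 9 of 9 guts) and Tspan5 (1.19 ± 0.93, 7 of 9 guts) rose, and Rhbdf2, an iRhom needed by Adam17, fell by 1.35 ± 1.00 in 9 of 9 guts (adjusted p = 1.1e-04, 0.0067 and 0.00406, limma). Among 6 EGF family ligands that ADAMs shed, 1 rose and 2 fell (16.7% and 33.3%, against 18.3% and 13.2% of all genes). Nrg1, which encodes neuregulin 1, rose by 1.86 ± 0.45 in 9 of 9 guts (adjusted p = 6.5e-05, limma), with scores of 0.71 to 1.04 in treated wells against -1.65 to -0.34 in untreated wells, so the groups did not overlap. Betacellulin (Btc) fell by 0.91 ± 0.52 in 9 of 9 guts and Hbegf by 0.71 ± 0.71 in 7 of 9 (adjusted p = 0.00596 and 0.0462, limma), and the Hbegf call was lost on leaving out any of guts 2 to 8 (-0.74 to -0.60).

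Substrates and related enzymes were divided as well, beside 18.3% of all genes higher and 13.2% lower with GDNF. Of 7 hyalectan proteoglycans and link proteins, substrates of the ADAMTS proteoglycanases or their partners, 2 rose and 0 fell: the brain proteoglycans Ncan (1.44 ± 1.13) and Bcan (0.89 ± 0.79) had adjusted p = 0.00477 and 0.0201 (limma), and Bcan did not pass without gut 6 (0.78) or 7 (0.72). Of 7 ADAMTS-like proteins, which have the ancillary domains without the protease, Adamtsl1 fell by 1.37 ± 0.31 in 9 of 9 guts and Adamtsl2 rose by 1.12 ± 1.24 in 8 of 9 (adjusted p = 1.7e-04 and 0.0276, limma), the second not without gut 1 (0.99), 7 (0.81) or 8 (1.07). In the plasminogen activator system, whose plasmin activates several proMMPs, 2 of 5 fell, Plau (-0.83 ± 0.94) and its receptor Plaur (-0.70 ± 0.70), and 0 rose (adjusted p = 0.0459 and 0.0466, limma), but each was lost on leaving out most single guts (-0.87 to -0.64 and -0.72 to -0.54). Of 5 astacin metalloproteinases, Tll2 rose by 1.56 ± 0.62 in 9 of 9 guts and the procollagen C-proteinase Bmp1 fell by 0.86 ± 0.48 in 9 of 9 (adjusted p = 2.7e-04 and 0.00717, limma).

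The second question of the design, which genes mark ENCCs within the gut, was addressed inside batch 2, where 4 treated, 4 untreated and 8 whole gut arrays were hybridised. GDNF-treated ENCCs were higher than whole gut for 17 members and lower for 13 (limma, adjusted over all genes at 0.05), against a background over all genes of 25.1% higher, 26.0% lower and 51.0% in either direction. Untreated ENCCs were higher for 24 members and lower for 5, against a background of 19.8% higher, 22.8% lower and 42.6% in either direction. In the MMP family 3 genes were higher and 4 lower in treated ENCCs, and 9 were higher and 0 lower in untreated ENCCs. The ADAM family gave 8 higher and 1 lower in treated and 7 higher and 1 lower in untreated ENCCs. For ADAMTS the counts were 3 higher and 8 lower in treated and 5 higher and 4 lower in untreated ENCCs. Of the TIMPs 3 were higher and 0 lower in each. The fit used a single SD per gene for both groups, while ENCC scores, the smaller group, spread more widely for most members. This can make the p-values against whole gut too small, and fewer members passed when the spread was weighted per group, as given below. Both comparisons used the same whole guts, and the treated and untreated arrays also entered the GDNF comparison, so their values are set side by side only. With the same whole guts in both, the treated and untreated distances from whole gut differ by the treated minus untreated gap on these arrays. The pair of distances therefore partly restates the GDNF difference. Arrays did not overlap with whole gut for 21 members in treated and 18 in untreated ENCCs, against 34.9% and 27.6% of all genes.

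**Figure D3:**
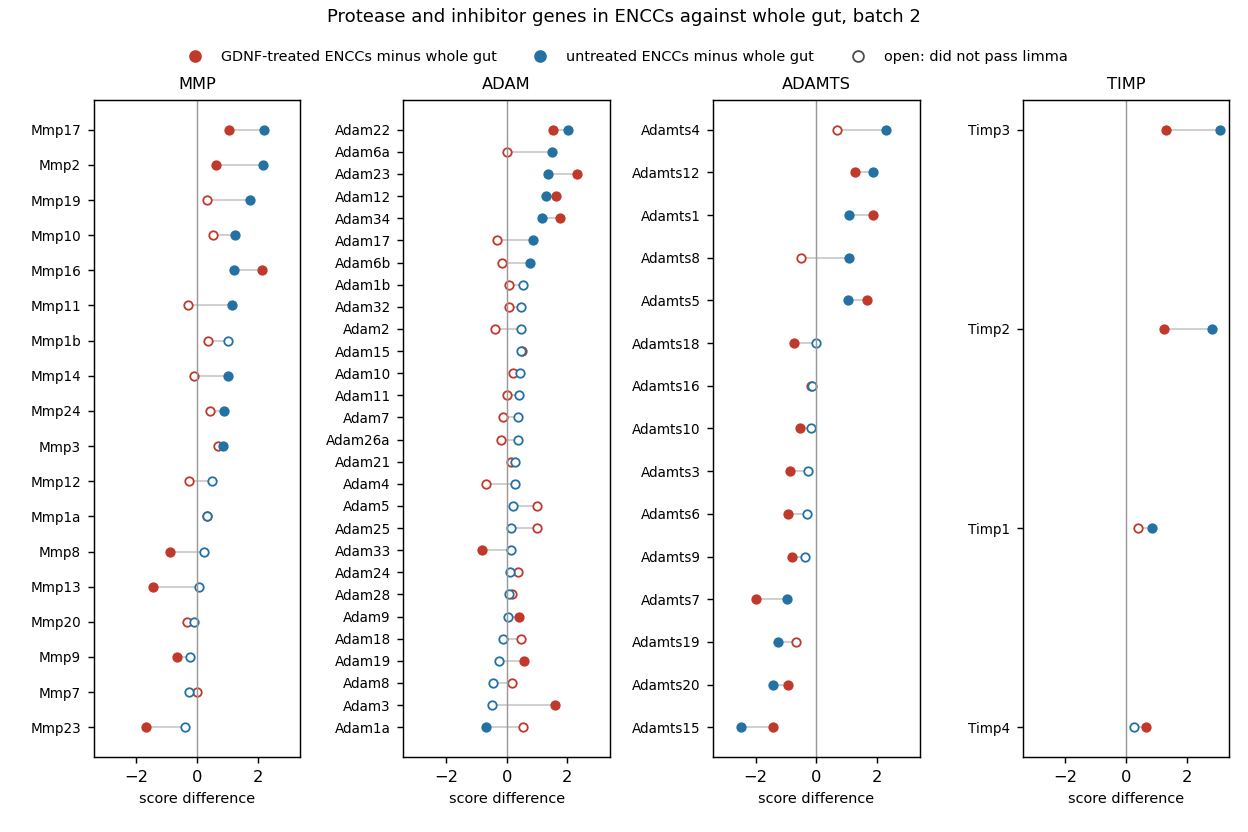
Score difference between ENCCs and whole gut in batch 2 (horizontal axis, score units) for every member by family, in red for GDNF-treated minus whole gut (4 and 8 arrays) and in blue for untreated minus whole gut (4 and 8 arrays), with open points for differences that did not pass limma. Timp2 and Timp3 lie to the right of 0 in both colours, and Mmp23 and Mmp13 are filled below 0 in red only.

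Timp3 and Timp2 stood furthest above whole gut among the members in untreated ENCCs. Timp3 scored -0.62, -1.50, -0.29 and -0.50 in treated ENCCs and 1.54, 0.11, 1.75 and 0.91 in untreated ENCCs (guts 2, 3, 8 and 9), against -2.10 to -1.98 (median -2.04) in whole guts. No ENCC array overlapped the whole guts, and the difference from whole gut was 1.30 in treated and 3.11 in untreated ENCCs (adjusted p = 6.9e-05 and 5.7e-07, limma). Timp2 scored -0.47, -1.19, -0.39 and -0.84 in treated ENCCs and 1.05, 0.34, 1.31 and 0.75 in untreated ENCCs, against -2.04 to -1.93 in whole guts. It too was apart from whole gut on every ENCC array, by 1.26 in treated and 2.84 in untreated ENCCs (adjusted p = 1.3e-05 and 9.8e-08, limma). Timp1 overlapped whole gut in both, with differences of 0.41 in treated ENCCs, which did not pass, and 0.87 in untreated ENCCs (adjusted p = 0.489 and 0.0113, limma). Timp4 was 0.67 higher in treated ENCCs and did not pass in untreated ENCCs, where the difference was 0.26 (adjusted p = 0.00439 and 0.388, limma) and passed only without gut 8 (0.50).

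The 9 MMPs above whole gut in untreated ENCCs were Mmp17, Mmp2, Mmp19, Mmp10, Mmp16, Mmp11, Mmp14, Mmp24 and Mmp3, with differences between 0.85 and 2.21. Mmp2 scored -1.09, -0.92, -0.32 and -0.13 in treated ENCCs and 0.76, -0.44, 1.34 and 2.11 in untreated ENCCs, against -1.31 to -1.17 (median -1.24) in whole guts. Every ENCC array lay above every whole gut, by 0.63 on average in treated and 2.19 in untreated ENCCs (adjusted p = 0.00742 and 1.1e-04, limma). Mmp17 scored -1.35, -0.80, 0.38 and -0.28 in treated and -0.18, -0.55, 1.62 and 1.63 in untreated ENCCs, against -1.67 to -1.51 in whole guts. Its differences, without overlap, were 1.07 in treated and 2.21 in untreated ENCCs (adjusted p = 0.00231 and 1.7e-04, limma).

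Mmp19 differed from whole gut by 0.32 in treated ENCCs, which passed only without gut 2 (0.61), and by 1.74 in untreated ENCCs without overlap (adjusted p = 0.302 and 2.8e-04, limma). Mmp16 scored 0.31, -0.60, 1.25 and 1.13 in treated and -0.07, -0.62, -0.65 and -0.24 in untreated ENCCs, against -1.73 to -1.41 in whole guts. Its differences were 2.14 in treated and 1.22 in untreated ENCCs (adjusted p = 2.9e-05 and 3.7e-05, limma), and no array overlapped. Mmp10, a stromelysin of the chromosome 9 cluster, differed by 0.54 in treated ENCCs, which did not pass, and by 1.27 in untreated ENCCs (adjusted p = 0.363 and 1.5e-04, limma). Mmp14 overlapped whole gut on both kinds of ENCC array, at -0.11 in treated ENCCs, which did not pass, and 1.02 in untreated ENCCs (adjusted p = 0.785 and 0.00336, limma). Mmp11 gave -0.28 in treated ENCCs, which did not pass, and 1.15 in untreated ENCCs (adjusted p = 0.436 and 0.00751, limma).

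Treated ENCCs were below whole gut for Mmp23 (-1.68), Mmp13 (-1.44), Mmp8 (-0.88) and Mmp9 (-0.65), with adjusted p of 3.0e-06, 1.3e-04, 0.032 and 0.0204 (limma). In untreated ENCCs the same genes differed by -0.40, 0.06, 0.23 and -0.24, and none of these passed. The treated difference of Mmp9 was -0.39 without gut 2. Mmp23 scored -0.44, -0.87, -0.88 and 0.06 in treated and 1.52, 1.33, 0.43 and -0.31 in untreated ENCCs, against 1.04 to 1.24 in whole guts. All 4 treated arrays were below the whole guts, and the untreated arrays lay on both sides.

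**Figure D4:**
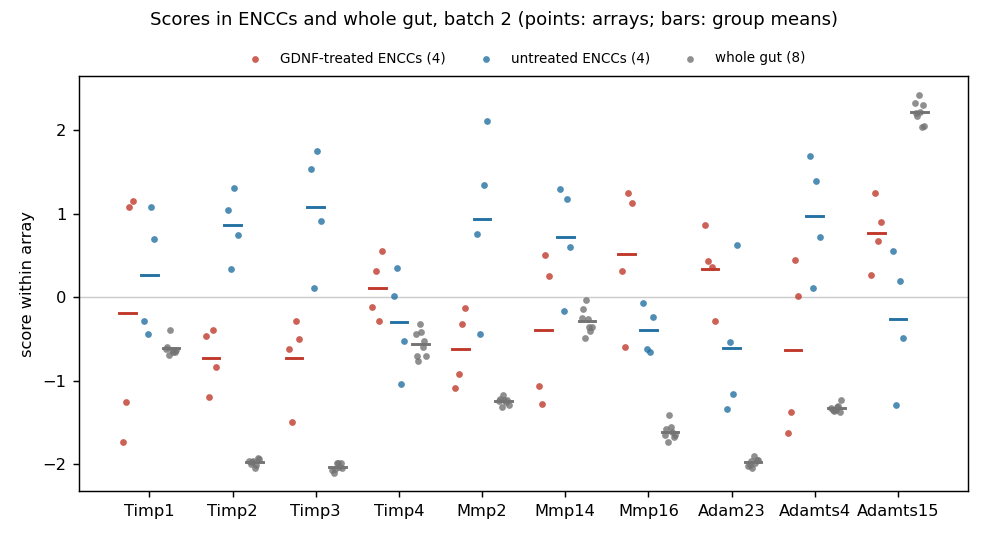
Scores on batch 2 arrays (vertical axis, score within array, 1 point an array, bars at group means) of 10 members in 4 GDNF-treated ENCC, 4 untreated ENCC and 8 whole gut samples. Whole gut points are tightly grouped, at -2.10 to -1.98 for Timp3 and 2.04 to 2.42 for Adamts15, and ENCC points of both kinds spread more widely.

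Among the ADAMs, Adam22 and Adam23 were higher in both kinds of ENCC than in whole gut. Adam22 scored -0.40, -0.62, 0.31 and -0.36 in treated and 0.78, 0.96, -0.28 and -0.50 in untreated ENCCs, against -1.90 to -1.53 in whole guts, with differences of 1.52 in treated and 2.02 in untreated ENCCs (adjusted p = 5.3e-06 and 2.0e-05, limma). Adam23 scored 0.87, 0.43, 0.36 and -0.29 in treated and -1.34, -0.54, -1.16 and 0.63 in untreated ENCCs, against -2.04 to -1.90 in whole guts, with differences of 2.32 in treated and 1.37 in untreated ENCCs (adjusted p = 2.4e-07 and 0.00133, limma). For both genes no ENCC array overlapped the whole guts. Adam12 was likewise apart, by 1.62 in treated and 1.31 in untreated ENCCs (adjusted p = 2.8e-04 and 0.00111, limma). The testis gene Adam34 was also higher in both, by 1.77 and 1.18 (adjusted p = 5.2e-05 and 0.0295, limma). Adam3, another, was 1.59 higher in treated ENCCs (adjusted p = 0.00142, limma) and did not pass in untreated ENCCs (-0.49). The probe sets of Adam34 and Adam3 reproduced poorly, with correlations between batches of 0.022 and -0.452. Poor reproduction was not confined to them, and other members that passed in a comparison had a single probe set with a negative correlation. These were Adam9 (-0.752), Mmp7 (-0.506), Adamts19 (-0.459), Mmp13 (-0.337), Adam6a (-0.176) and Adam1a (-0.094).

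Adam17 scored -0.99 to 0.09 in treated and 0.51 to 0.80 in untreated ENCCs, against -0.50 to 0.05 in whole guts. Treated ENCCs overlapped whole gut and differed by -0.32, which passed only without gut 8 (-0.53), and untreated ENCCs lay above it by 0.86 (adjusted p = 0.197 and 7.0e-04, limma). Adam10 differed by 0.20 in treated and 0.45 in untreated ENCCs and passed in neither (adjusted p = 0.57 and 0.0807, limma), though the second passed without gut 3 (0.51) or gut 8 (0.64). Adam6a, one of a pair of near-identical genes whose probe sets may not separate them, was 0.00 apart from whole gut in treated ENCCs and 1.51 higher in untreated ENCCs (adjusted p = 0.999 and 0.0114, limma). Adam33 was the ADAM lower in treated ENCCs (-0.81, adjusted p = 0.00393, limma). Adam1a, a testis gene, was the ADAM lower in untreated ENCCs (-0.68, adjusted p = 0.0463, limma), a call lost in most fits that left out an array (-0.70 to -0.56 where lost).

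The ADAMTS family was divided. Adamts4 scored -1.63, -1.37, 0.45 and 0.02 in treated and 1.69, 0.11, 1.39 and 0.72 in untreated ENCCs, against -1.38 to -1.23 in whole guts. Treated arrays overlapped the whole guts, at 0.69 (adjusted p = 0.0881, limma), which passed without gut 2 (1.03) or gut 3 (0.94). Untreated arrays were all above them, by 2.30 on average (adjusted p = 4.4e-06, limma). Adamts5 and Adamts1 were higher than whole gut in both, by 1.68 and 1.88 in treated ENCCs (adjusted p = 3.8e-06 and 1.9e-07, limma) and by 1.06 and 1.08 in untreated ENCCs (adjusted p = 0.00127 and 0.0084, limma). Adamts12, an enzyme that cuts cartilage oligomeric matrix protein, was 1.26 higher in treated and 1.88 in untreated ENCCs (adjusted p = 2.1e-06 and 4.7e-04, limma). Adamts8 differed by -0.50 in treated ENCCs, which passed only without gut 9 (-0.85), and by 1.07 in untreated ENCCs (adjusted p = 0.223 and 0.0313, limma), which was lost without ENCC gut 2 (0.79), ENCC gut 8 (0.72) or whole gut 2 (1.04).

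Adamts15, a versican-cutting enzyme, was the member furthest below whole gut in untreated ENCCs. It scored 0.27, 1.25, 0.68 and 0.90 in treated and 0.56, -1.29, 0.20 and -0.49 in untreated ENCCs, against 2.04 to 2.42 in whole guts. Without overlap, its difference was -1.44 in treated and -2.48 in untreated ENCCs (adjusted p = 1.1e-05 and 6.9e-06, limma). Adamts20, known from the belted coat of mutant mice, was lower in both, with differences of -0.94 in treated and -1.43 in untreated ENCCs (adjusted p = 0.0362 and 0.00534, limma). The treated call was lost without gut 8 (-0.78) or 9 (-0.55), or without most single whole guts, and the untreated difference was -0.93 without gut 8. Adamts7, which like Adamts12 cuts cartilage oligomeric matrix protein, was lower in both, with differences of -2.00 in treated ENCCs, where gut 2 scored -2.95, and -0.95 in untreated ENCCs (adjusted p = 0.004 and 9.2e-04, limma). Without gut 2 the treated difference was -1.21. Adamts19 differed by -0.67 in treated ENCCs, which passed without gut 2 (-1.55), and by -1.25 in untreated ENCCs (adjusted p = 0.341 and 2.4e-04, limma).

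Probe sets had been scaled on ENCC RNAs before ranking, so SDs of ENCC and whole gut scores do not compare the spread of expression. They were counted for members only, with no share over all genes. The SD over arrays was larger in treated ENCCs than in whole guts for 62 of the 65 members and larger in untreated ENCCs for 63. For Timp3 it was 0.53 in treated and 0.74 in untreated ENCCs, against 0.05 in whole guts. Adam17 was an exception, at 0.12 in untreated ENCCs against 0.20 in whole guts, and Adamts12 another, at 0.11 in treated ENCCs against 0.14 in whole guts. When the spread was weighted per group, treated ENCCs were higher for 12 and lower for 6 members, and untreated ENCCs higher for 13 and lower for 2. The shares over all genes given above belong to the unweighted fit and are no background for these weighted counts. With those weights Timp2, Timp3, Mmp2, Mmp16, Mmp17, Adam22, Adam23, Adamts5, Adamts12 and Adamts15 passed in both comparisons, and Adamts4 and Mmp19 in untreated ENCCs. Sorting and culture were part of every ENCC sample and of no whole gut, so they cannot be told apart from cell identity here.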

How the data were processed

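Mouse ENCC and whole gut RNAs were read on Affymetrix arrays. The submitters' processing notes name RMA, which gives log2 values, but the deposited values are not log2: per the file's values, each array is a score, the normal quantile of the rank among 45101 probe sets, from -4.084 to 4.084 with a median of 0 and a largest deviation of 5e-06. The values also show an earlier centring and scaling of each probe set on the 7 ENCC RNAs read in both batches. No label records these steps, so the deposited score keeps no level, no brightness for a filter and no shift of all genes. Scaling on ENCC RNAs of both kinds can hold down large GDNF differences, which was not tested. Precision is limited by how many arrays there are.

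Probe sets with 1 gene symbol in the platform annotation (34958, with 932 having several and 9211 none) were used, less controls, and averaged per gene. All 65 member symbols matched the RefSeq gene table unchanged, and 5 probe sets shared with another gene were left out. Members and lists were chosen with earlier results of these data known.

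For GDNF, the untreated score was subtracted from the treated score of the same gut within a batch. Guts 3, 8 and 9 entered as the mean of both batches, gut 2 came from batch 2, and the other guts came from batch 1. That a gut gave both wells is stated in the labels' treatment protocol, and the shared title number is read as the gut. The deviations of the wells of a gut correlated at 0.063 to 0.296 (median 0.220), over 0.1 in 7 of 9 guts. ENCCs were compared with whole gut within batch 2. Limma 3.58.1 (R 4.3.3, statmod 1.5.0) was fitted to all genes with eBayes and Benjamini-Hochberg adjustment at 0.05. Because the unit was not log2, no fold or brightness filter was used. On simulated scores, the GDNF fit recovered 31 of 100 genes shifted by 1 and 97 of 100 shifted by 2, with 6 false calls among 17993, and the whole gut fit 47 and 94 of 100, with 9 false calls. The simulation drew genes independently, gave ENCC and whole gut arrays the same SD per gene, and shifted few genes. In the data these SDs differed between the groups, and 31.5% to 51.0% of genes were called. The simulated figures therefore do not give the error rates of the fits to the data.

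Named genes were all TIMPs, in each other family up to 6 that rose and 6 that fell with GDNF and up to 4 highest and 4 lowest in untreated ENCCs against whole gut, 9 well-known members, and up to 3 per partner list. Members named outside this rule were chosen after their values were seen. Alternatives were no pairing of wells, the most reproducible probe set, probe sets tested singly, single batches, both batches for ENCCs, hybridisation controls as a covariate, array weights, robust spread, exact tests, an array left out and each sample left out. Promoter windows come from RefSeq (GRCm38.p6). Some genes of the lists are not reported here.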

Additional observations from a re-analysis of the deposited data

Results flagged for a closer look

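Values of 1 sample that stood far from the rest of its group by Dixon's test were found in 13 of 136 groups of samples examined for 34 members, and chance gives about 1 in 20. Among the GDNF differences, gut 1 stood apart for Adam12 (2.72, others -0.57 to 0.38), Adam22 (3.08, others -1.22 to 0.33), Mmp11 (0.26, others -2.05 to -0.90) and Timp2 (1.19, others -1.62 to -0.62). Gut 2 stood apart for Adamts7, at -3.91 against -0.77 to 0.78, and its treated array in batch 2 scored -2.95 against 0.13 to 0.29. On untreated arrays of batch 2, gut 2 stood apart for Adam12 (1.24, others -0.43 to -0.33), gut 3 for Adam9 (-1.93, others 0.53 to 0.81) and Adam1a (0.02, others -1.14 to -0.95), and gut 8 for Mmp7 (-1.74, others 0.23 to 0.53). Among whole guts, gut 1 stood apart for Adam22 (-1.53, others -1.90 to -1.74) and gut 4 for Mmp9 (0.20, others 0.62 to 0.89) and Timp1 (-0.39, others -0.69 to -0.60). The array of the untreated well of gut 3 in batch 2 is also the one whose RNA correlated least between batches (0.117). Without it Adam9 was 0.70 above whole gut in untreated ENCCs and passed, against 0.05 with it.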

How the results depend on the processing

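The counts of members called kept within 1.5 times under most alternatives. Shares of all genes called under each alternative are not given here, so these counts are not set against a background. With GDNF, 5 rose and 15 fell, and the replicate block is part of that fit. With no replicate block 3 rose and 13 fell, in batch 2 alone 0 rose and 0 fell (2 and 13 at an unadjusted p under 0.05), and leaving out each gut gave 4 to 6 that rose and 12 to 16 that fell. Of the 20 called members, 11 were under that unadjusted p in batch 2 alone. The 2 that rose at that p there, Adam1a and Adam3, were not called in the main fit. Nor were Adam6a and Mmp13, which fell at that p. Against whole gut, array weights per group gave 12 higher and 6 lower in treated and 13 higher and 2 lower in untreated ENCCs. Probe sets tested singly gave 7 lower in treated ENCCs, and without the batch 2 array of the untreated well of gut 3 there were 8 lower in untreated ENCCs. Leaving out each sample gave 16 to 20 higher and 10 to 13 lower in treated ENCCs, and 21 to 27 higher and 4 to 8 lower in untreated ENCCs. The sign turned for Adam9 (0.35) and Mmp7 (0.25) with GDNF in batch 2 alone, and for Adam9 in treated ENCCs against whole gut with ENCC RNAs of both batches (-0.27). The cause was not tested. The most reproducible probe set of each gene gave 18 that fell, with Adam10 (-1.18), Adam11 (-1.00) and Adamts12 (-1.03) added, and larger GDNF differences for Adam23 (1.85) and Adamts6 (-1.30), and batch 2 alone gave -0.41 for Adamts9, -1.58 for Timp2 and 0.42 for Timp4. Brightness over background is not kept in the scores, so genes near the detection limit could not be set aside.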
